A study of Homo sapiens with 6 samples.

Results

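A set of 10 transcription factor genes of cardiac and paraxial mesoderm were followed in hESCs of the established line H1 during specification toward ectoderm. They are HAND1, HAND2, NKX2-5, TBX2, TBX3, TBX5, TBX20, MEF2C, TCF21 and MEOX1. Each symbol had 1 row among the 23615 rows of the deposited gene table, so all 10 were found. Colonies were exposed to 0.5 nM BMP-4 over the first 3 days, and 10% fetal calf serum replaced it until day 10. Throughout, they were given either 5 μM DAPT, a γ-secretase inhibitor that blocks Notch receptor cleavage, or the ethanol in which DAPT was dissolved. Poly-A RNA of day 10 was sequenced in 3 DAPT and 3 ethanol libraries. All cells came from 1 line and all had received BMP-4 and serum, and no undifferentiated sample was part of the series.

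These factors act in the mesoderm of the vertebrate embryo. HAND1 and HAND2 are bHLH proteins that bind DNA with a partner at sites called E-boxes, and they pattern the lateral mesoderm and the cardiac ventricles. NKX2-5, TBX5, TBX20 and MEF2C form, with GATA factors, the core network of cardiac progenitors, whereas TBX2 and TBX3 are T-box repressors that keep parts of the heart from adopting chamber fate. TCF21 marks epicardial and visceral mesenchyme, and MEOX1 is a homeobox factor of the somites, the segments of paraxial mesoderm. Several of the genes are not restricted to mesoderm: HAND1 is also known from trophoblast and extraembryonic tissue, HAND2 and MEF2C from neural crest derivatives, MEF2C from neurons, and TBX2 and TBX3 from limb and mammary epithelium.

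The table holds 1 expression value per gene and treatment, computed by the authors over the libraries of that treatment, in FPKM (fragments scaled to transcript length and to the mapped fragments of the library). No values per library were given, so the depth is unknown, and neither an SD, an interval nor a test across libraries could be computed for any difference below. A gene was placed among the expressed genes at 1 FPKM or more in either treatment, and a ratio of at least 2 between the treatments was used as the size of difference to count. In bulk RNA, fewer cells of a type and less RNA per cell cannot be told apart. The deposited workbook names the treatments in opposite ways in its 2 sheets for identical values (1417 of the 1417 rows in the sheet of changed genes). The naming of that sheet was followed, and under the other naming every "higher with DAPT" below would read "lower".

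The 10 factors spanned a wide range of levels and divided into 5 that were similar in both treatments and 5 that differed at least 2-fold. HAND1, HAND2, TBX3, TCF21 and MEOX1 lay within 2-fold, with log2 ratios of DAPT over ethanol between -0.33 and 0.55. TBX20, NKX2-5 and TBX5 were lower with DAPT, and MEF2C and TBX2 were higher. The similar genes included the 4 with 10 FPKM or more in either treatment, and the differing genes were all below 3 FPKM. Of the 10, 7 reached 1 FPKM in either treatment. Among these 7, MEF2C was at least 2-fold higher with DAPT and TBX20 at least 2-fold lower, while 4.77% of the 13370 genes at that level were that much higher and 5.45% that much lower. The other 3, NKX2-5, TBX2 and TBX5, lay between 0.1 and 1 FPKM in their larger treatment. In that range 2-fold differences were more frequent, with 13.4% of 3773 genes higher and 18.3% lower. The median log2 ratio was -0.28 over the 10 members and -0.25 over the 7, against 0.00063 over all genes with at least 1 FPKM, whose quartiles were -0.28 and 0.27.

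**Figure D1:**
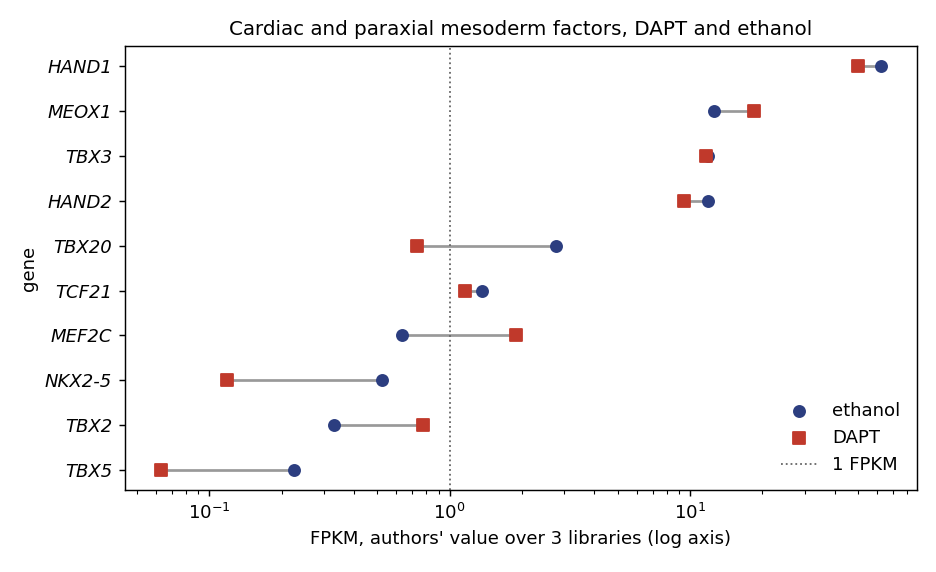
FPKM of each factor with ethanol (circles) and DAPT (squares), 1 value per treatment over 3 libraries, on a log axis, with genes ordered by the ethanol level and no error bars because none could be computed. The long bars of TBX20, NKX2-5 and TBX5 run to lower and those of MEF2C and TBX2 to higher levels with DAPT, while the squares and circles of HAND1, MEOX1, TBX3, HAND2 and TCF21 lie close together.

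**Figure D2:**
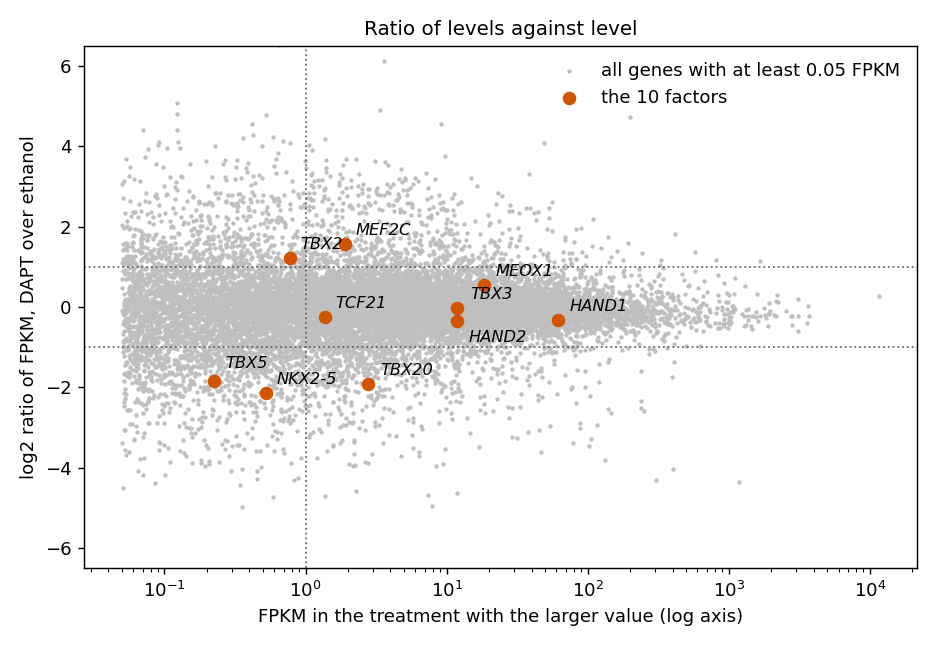
Log2 ratio of FPKM (DAPT over ethanol) against the larger FPKM of the 2 treatments (log axis) for all genes with at least 0.05 FPKM (grey) and the 10 factors (orange). Dotted lines mark 2-fold and 1 FPKM, and the grey cloud is widest below 1 FPKM, where NKX2-5 (-2.14), TBX5 (-1.84) and TBX2 (1.22) lie.

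HAND1 was the most abundant of the factors. It was at 50.0 FPKM under DAPT and 62.1 FPKM under ethanol, a log2 ratio of -0.31, and exceeded 93.2% and 94.4% of the rows above 0 in the respective treatment. Its paralog HAND2 was at 9.44 FPKM under DAPT and 11.9 FPKM under ethanol, a log2 ratio of -0.33. The 2 genes kept almost the same proportion, since the FPKM of HAND1 was 5.29 times that of HAND2 with DAPT and 5.22 times with ethanol. HAND1 made up 53.0% of the summed FPKM of the 10 members with DAPT and 59.5% with ethanol. That sum was 94.4 and 104 FPKM, a log2 ratio of -0.15, and it therefore mostly reflects HAND1. In the hg19 coordinates of the table, HAND1 lies on chromosome 5 (153854532 to 153857824) and HAND2 on chromosome 4 (174447652 to 174451378), both on the minus strand with 2 exons in the canonical transcript.

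The HAND2 locus has an antisense neighbour. The row NBLA00301, whose current RefSeq symbol is HAND2-AS1, begins 231 bases after the end of the HAND2 row and is annotated on the opposite strand. It was at 1.06 FPKM under DAPT and 0.647 FPKM under ethanol, a log2 ratio of 0.71, on the other side of 0 from HAND2. The present GENCODE annotation lets HAND2-AS1 overlap HAND2 itself. The libraries were stranded, but the strand setting of the authors' counting is not given in the sources used here, so the share of reads that each of the 2 rows took from the other was not tested.

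The sequences before the starts of 4 members are shown because they belong to the abundant HAND pair and to the 2 expressed members that differed past 2-fold. RefSeq windows (build GRCh38.p14) were matched for 6 of the 10 members, namely HAND1, HAND2, TBX5, TBX20, MEF2C and TCF21. Each line gives the 250 bases before the start, 5′ to 3′ along the gene, at its single exact match in GRCh37: chr5:153857788-153858037 for HAND1, chr4:174451381-174451630 for HAND2, chr7:35293712-35293961 for TBX20 and chr5:88199923-88200172 for MEF2C, all read from the minus strand. MEF2C has 7 windows, and the one whose start coincides with the edge of its row in the table was taken.
HAND1: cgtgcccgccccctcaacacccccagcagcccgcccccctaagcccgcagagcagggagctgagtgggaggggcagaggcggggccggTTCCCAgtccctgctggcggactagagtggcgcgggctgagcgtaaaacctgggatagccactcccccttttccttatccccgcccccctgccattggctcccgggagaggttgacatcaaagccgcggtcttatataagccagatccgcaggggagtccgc
HAND2: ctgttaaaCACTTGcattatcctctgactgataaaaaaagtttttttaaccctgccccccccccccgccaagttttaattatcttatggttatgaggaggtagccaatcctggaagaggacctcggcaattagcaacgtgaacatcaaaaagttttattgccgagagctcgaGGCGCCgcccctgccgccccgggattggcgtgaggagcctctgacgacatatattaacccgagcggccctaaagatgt
TBX20: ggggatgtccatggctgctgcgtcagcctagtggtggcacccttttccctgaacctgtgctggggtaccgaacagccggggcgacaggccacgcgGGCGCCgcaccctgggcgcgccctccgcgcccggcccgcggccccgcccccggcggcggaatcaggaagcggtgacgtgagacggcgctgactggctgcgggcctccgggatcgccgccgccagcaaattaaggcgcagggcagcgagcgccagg
MEF2C: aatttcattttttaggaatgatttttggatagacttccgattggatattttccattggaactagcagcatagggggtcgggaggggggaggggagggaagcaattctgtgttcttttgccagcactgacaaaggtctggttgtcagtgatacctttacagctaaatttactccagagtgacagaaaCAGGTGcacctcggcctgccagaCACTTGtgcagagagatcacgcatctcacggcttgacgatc
Capitals mark 3 motifs, searched on both strands: the E-box CANNTG read by bHLH proteins, the core TGGGAA read by the Notch effector RBPJ, and GGCGCC, a GC-rich element bound by BMP-responsive SMADs.

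In the HAND1 window there was 1 RBPJ core, on the reverse strand, and neither of the other motifs. HAND2 had 1 E-box and 1 GGCGCC, TBX20 had 1 GGCGCC, and MEF2C had 2 E-boxes. No marked stretches overlapped in these windows. Of the 35116 windows of this length in the table, 61.8% held an E-box, 20.8% the RBPJ core and 16.4% GGCGCC, so each motif is frequent. The GATA letters AGATAA (9.17% of windows) were present 1 time in the HAND2 window and in none of the other 3. The TATA letters TATAAA (10.7% of windows) and the T-box letters AGGTGTG (3.84%) were in none of the 4. The windows differed in base composition, with a GC content of 74.0% and 31 CpG dinucleotides for TBX20, 67.2% and 16 for HAND1, 49.6% and 13 for HAND2, and 47.2% and 6 for MEF2C. The medians over all windows were 58.0% and 11. These are descriptions of letters in 1 window per gene, and no binding was measured.

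The cardiac T-box genes TBX20 and TBX5 and the homeobox gene NKX2-5 were all lower with DAPT. TBX20, which is needed for growth of the heart chambers, was at 0.734 FPKM under DAPT and 2.78 FPKM under ethanol, a 3.78-fold lower level (log2 ratio -1.92). NKX2-5, the earliest broadly used marker of cardiac progenitors, was at 0.119 FPKM under DAPT and 0.526 FPKM under ethanol, 4.42-fold lower (log2 ratio -2.14). TBX5, a factor of the first heart field and the forelimb, was at 0.0628 FPKM under DAPT and 0.225 FPKM under ethanol, 3.58-fold lower (log2 ratio -1.84). Of the trio, TBX20 alone reached 1 FPKM in ethanol and none did in DAPT. TBX5 was the member with the lowest level in both treatments, above 12.2% of the rows above 0 with DAPT and 21.8% with ethanol. In hg19, TBX20 lies on chromosome 7 (35242042 to 35293711, 8 exons) and NKX2-5 on chromosome 5 (172659107 to 172662315, 2 exons). TBX5 (9 exons) has a row on chromosome 12 that covers 114791735 to 114850637, and all 3 genes are on the minus strand. The TBX5-AS1 row has the same interval, and this antisense RNA gene was at 0.0221 FPKM under DAPT and 0.0379 FPKM under ethanol. RefSeq starts of TBX5 lie inside the interval, at 114846247 and 114845817, so its upper edge is not a TBX5 start. How reads were assigned between these rows is not stated in the sources used.

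MEF2C and TBX2 were higher with DAPT. MEF2C, a MADS-box activator of muscle genes, was at 1.89 FPKM under DAPT and 0.634 FPKM under ethanol, 2.98-fold higher (log2 ratio 1.58). Its row covers chromosome 5 from 88014058 to 88199922 on the minus strand, where the annotation lists 57 transcripts and the antisense genes MEF2C-AS1 and MEF2C-AS2. Which of these the authors' single value for the gene covers is not known, since their annotation is not given. TBX2 was at 0.772 FPKM under DAPT and 0.331 FPKM under ethanol, 2.33-fold higher (log2 ratio 1.22). With ethanol, TBX20 was the more abundant of TBX2 and TBX20, at 2.78 against 0.331 FPKM. With DAPT they were level, at 0.734 FPKM for TBX20 and 0.772 FPKM for TBX2. TBX2 lies on the plus strand of chromosome 17 (59477257 to 59486827, 7 exons), with TBX4 as its nearest T-box neighbour on that chromosome.

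TBX3 differed least of all members. It was at 11.6 FPKM under DAPT and 11.9 FPKM under ethanol (log2 ratio -0.035, a sign that turned to 0.033 when each treatment was rescaled to the same total). TBX3 (chromosome 12, 115108059 to 115121969) is the next T-box gene after TBX5 on the same strand, 257422 bases from the edge of the TBX5 row. Its FPKM was 185 times that of TBX5 with DAPT and 52.9 times with ethanol. Its closest relative by function, TBX2, was 15.1 times lower than TBX3 with DAPT and 36.0 times lower with ethanol. MEOX1, the somite factor, was the second most abundant member, at 18.6 FPKM under DAPT and 12.6 FPKM under ethanol, 1.47-fold higher (log2 ratio 0.55). It took 19.7% of the members' summed FPKM under DAPT and 12.1% with ethanol. MEOX1 (chromosome 17, 41717758 to 41739262, 3 exons) stood far above its paralog MEOX2, which was at 0.0642 and 0.0735 FPKM. TCF21 (chromosome 6, 134210259 to 134216675, 2 exons) was at 1.15 FPKM under DAPT and 1.37 FPKM under ethanol, a log2 ratio of -0.25, just above the level that counted as expressed.

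The members' own gene families held ratios of either sign. Among the 17 T-box genes of the table, TBX3 was the most abundant in both treatments, with 44.3% of the summed T-box FPKM under DAPT and 32.7% with ethanol. Of the 13 T-box genes that are not members, 5 reached 1 FPKM, of which 1 was higher and 2 were lower past 2-fold (median log2 ratio -0.79). EOMES, a factor of primitive streak and endoderm, was at 0.842 FPKM under DAPT and 9.69 FPKM under ethanol (log2 ratio -3.52). It was number 2 in order with ethanol and number 4 with DAPT. T, or brachyury, the factor of nascent mesoderm, was at 0.480 and 2.00 FPKM (-2.06). TBX4, the hindlimb factor, was at 4.69 and 2.30 FPKM (1.03), a ratio on the same side as that of its neighbour TBX2. TBX18, of epicardium and sinus horn, was at 0.617 and 1.07 FPKM, and the ubiquitous T-box protein gene MGA at 4.59 and 3.92 FPKM. The order from TBX18 to TBX19 in ethanol covered only 0.895 to 1.07 FPKM, and without replicate values these neighbours cannot be ranked.

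**Figure D3:**
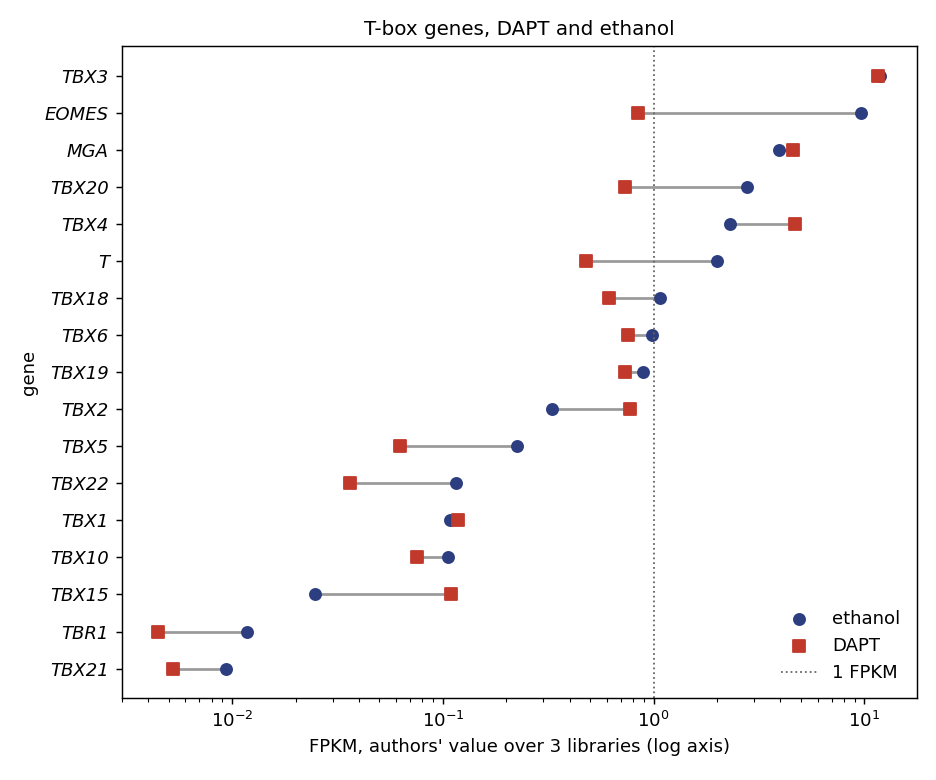
FPKM of all 17 T-box genes with ethanol (circles) and DAPT (squares), 1 value per treatment over 3 libraries, on a log axis and ordered by the ethanol level. TBX3 is at the top with 11.6 and 11.9 FPKM, the bars of EOMES, TBX20 and T run to lower levels with DAPT, and those of TBX4 and TBX2 to higher levels.

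In the NK2 family, NKX2-5 and its paralog NKX2-6 had ratios of opposite sign. NKX2-6, which in the mouse is expressed in pharyngeal endoderm and early heart, was at 2.40 FPKM under DAPT and 0.240 FPKM under ethanol (log2 ratio 3.32), whereas NKX2-5 had a log2 ratio of -2.14. With ethanol, NKX2-5 was the higher by 2.19 times, and with DAPT NKX2-6 was the higher by 20.1 times. NKX2-6 was the 1 gene of the 6 other NK2 genes that reached 1 FPKM, and 4 of the 6 were listed at 0 with DAPT. The other MEF2 genes stayed within 2-fold, 3 of 3 (median log2 ratio 0.065), as did most expressed genes. MEF2A was at 8.68 FPKM under DAPT and 6.59 FPKM under ethanol, and MEF2D at 4.86 and 5.20 FPKM. MEF2A was thus 4.59 times as abundant as MEF2C with DAPT and 10.4 times with ethanol. Of the bHLH relatives of HAND and TCF21, only TWIST1, a mesenchyme and neural crest factor, reached 1 FPKM, at 5.95 and 3.37 FPKM (0.82).

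Most partners of these factors lay within 2-fold, as did most expressed genes. Of 15 genes for E proteins, ID inhibitors, histone deacetylases and other MEF2 or bHLH partners, all reached 1 FPKM and 13 lay within 2-fold (median log2 ratio -0.035). Past 2-fold, 1 was higher and 1 lower, beside 4.77% and 5.45% of all genes with at least 1 FPKM. The same shares are the background of the lists below. EP300, an acetyltransferase that activates MEF2, was at 6.63 FPKM under DAPT and 1.53 FPKM under ethanol (2.11). ID1, which sequesters the E proteins that HAND and TCF21 need as partners and is a BMP target, was at 50.2 and 104 FPKM (-1.05). ID3 was at 68.3 and 127 FPKM (-0.90) and ID2 at 61.4 and 62.5 FPKM.

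Among 23 other regulators of cardiac and lateral mesoderm, 16 reached 1 FPKM, of which 8 were lower and 3 higher past 2-fold (median log2 ratio -0.95). GATA4, the partner of NKX2-5 and TBX5, was at 2.39 FPKM under DAPT and 12.4 FPKM under ethanol (-2.37). FOXF1, a factor of splanchnic mesoderm, was at 1.28 and 5.16 FPKM (-2.01), and HOPX, a homeodomain protein without DNA binding in cardiac progenitors, at 4.53 and 16.3 FPKM (-1.85). The 3 that were higher, chosen for mention after their values were seen, were ISL1 (12.1 against 5.24 FPKM, 1.21), a factor of the second heart field, the Notch target gene HEY1 (9.37 against 3.79 FPKM, 1.31) and the methyltransferase gene SMYD2 (30.3 against 14.8 FPKM, 1.03). HEY2, also a Notch target gene and also chosen for mention after its values were seen, was lower, at 2.58 and 5.85 FPKM (-1.18). Lists share genes: GATA4 and GATA6 also count among the endoderm markers below, and ISL1, HEY1 and BMP4 among the amnion markers. SALL4 (16.2 and 24.2 FPKM) and TEAD1 (20.3 and 16.6 FPKM) were within 2-fold. The early cardiac regulator MESP1, chosen for mention after its values were seen, was at 0.0429 and 0.0743 FPKM. Paraxial regulators were mostly low, with 8 of 27 at 1 FPKM or more and 3 higher and 2 lower past 2-fold (median log2 ratio 0.12). EYA1 (2.76 against 0.360 FPKM, 2.94) and PAX3 (4.70 against 0.904 FPKM, 2.38), which also act in placodes and neural crest, were higher with DAPT, and T was lower. LFNG, a modifier of Notch receptors, was at 8.49 and 12.2 FPKM, and the Notch ligand gene DLL1 at 2.36 and 1.40 FPKM.

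Signals in the induction of cardiac mesoderm were also listed. The list mixes inducers with secreted antagonists (CER1, DKK1, LEFTY1 and LEFTY2), so its counts and median cover both kinds. Of 18 genes, 16 reached 1 FPKM, with 8 lower and 2 higher past 2-fold (median log2 ratio -0.97). The Nodal pathway genes GDF3 (2.05 against 14.0 FPKM, -2.76), NODAL (2.09 against 9.85 FPKM, -2.23) and TDGF1 (22.6 against 105 FPKM, -2.21) were lower with DAPT. The 2 that were higher were BMP4 (22.7 against 8.57 FPKM, 1.41), an inducer of cardiac mesoderm, and BMP5 (4.76 against 1.87 FPKM, 1.35). Other BMP genes were lower, BMP2 (7.53 against 16.1 FPKM, -1.09) and BMP10 (2.65 against 11.6 FPKM, -2.12). The BMP genes were chosen for mention after their values were seen. Nodal antagonist genes lay on either side. LEFTY2 was higher, at 5.19 and 3.54 FPKM (0.55). LEFTY1 (0.640 against 2.93 FPKM, -2.19) and CER1 (2.97 against 12.0 FPKM, -2.02) were lower. These antagonist genes were also chosen for mention after their values were seen. WNT5A (25.4 and 12.9 FPKM) and the WNT antagonist gene DKK1 (10.7 and 12.4 FPKM) stayed within 2-fold.

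Genes of cardiomyocytes were present in part. Of 24, 13 reached 1 FPKM, with 5 lower and 2 higher past 2-fold (median log2 ratio -0.42). The cardiac actin gene ACTC1 was at 999 FPKM under DAPT and 814 FPKM under ethanol and NPPB, a natriuretic peptide gene, at 127 and 170 FPKM. Of the myosin light chain genes, MYL2 was at 1.30 and 0.146 FPKM (3.16) and MYL3 at 0.936 and 5.31 FPKM (-2.51). The more abundant MYL4 (7.78 and 22.8 FPKM, -1.55) and MYL7 (51.2 and 84.6 FPKM, -0.73), chosen for mention after their values were seen, lay on the side of MYL3. SLN (46.1 and 17.2 FPKM, 1.43) and the troponin gene TNNT2 (21.5 and 11.6 FPKM, 0.88) were higher with DAPT. The troponin genes TNNC1 (25.9 and 54.8 FPKM, -1.08) and TNNI3 (2.44 and 8.62 FPKM, -1.82) were lower. SLN and the troponin genes were also chosen for mention after their values were seen. The connexin gene GJA5 was at 2.66 and 10.7 FPKM (-2.01). The cardiac myosin heavy chain genes MYH6 (0.0391 and 0.0243 FPKM) and MYH7 (0.0258 and 0.00870 FPKM), which define working cardiomyocytes and were chosen for mention after their values were seen, were near 0 in both treatments. Genes of epicardium and fibroblasts were listed together, and those with the highest levels were general mesenchymal genes. Of 14, 12 reached 1 FPKM, 2 were higher and 2 lower past 2-fold, and their summed FPKM was 2033 with DAPT and 1929 with ethanol. VIM was at 927 and 966 FPKM, COL3A1 at 482 and 302 FPKM, and the proteoglycan gene DCN at 9.72 and 0.713 FPKM (3.77). Markers used for epicardium were lower in level. WT1 was at 0.0804 and 0.119 FPKM, UPK3B at 0.760 and 0.515 FPKM, TBX18 at 0.617 and 1.07 FPKM and ALDH1A2 at 2.00 and 1.28 FPKM, all 4 chosen for mention here after their values were seen. BNC1 (13.2 and 4.58 FPKM, 1.53), of mesothelium, and PDGFRA (3.10 and 8.68 FPKM, -1.48), of mesenchyme, lay on opposite sides of 0.

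Markers of other cell types that such cultures could hold were listed beside the members, and their ratios differed from list to list. Of 12 amnion markers, all reached 1 FPKM and 9 were higher past 2-fold with none lower, with a summed FPKM of 921 with DAPT and 280 with ethanol. IGFBP3 alone gave 580 and 224 FPKM of that sum. GABRP was at 201 and 7.56 FPKM, VTCN1 at 48.7 and 2.86 FPKM, and TFAP2B at 3.60 and 0.0519 FPKM, while GATA3 (9.74 and 9.17 FPKM) and TFAP2C (6.96 and 6.08 FPKM) were within 2-fold. Of 17 trophoblast markers, 9 reached 1 FPKM, 1 was higher and 2 lower past 2-fold, and the sum was 212 and 133 FPKM, of which KRT7 alone gave 179 and 97.6 FPKM. Among neural crest markers, 11 of 12 reached 1 FPKM, 5 were higher and none lower, and the sum was 109 and 60.4 FPKM. SNAI2 was at 16.4 and 2.04 FPKM and SOX10 at 3.49 and 0.649 FPKM, while MSX2 (30.5 and 21.5 FPKM) and ETS1 (23.6 and 14.5 FPKM) were within 2-fold. Among neural markers, 5 of 12 reached 1 FPKM and 2 were higher, MAP2 (1.36 and 0.179 FPKM) and PAX6 (2.57 and 1.17 FPKM), and the sum was 164 and 167 FPKM. TUBB3 alone gave 130 and 133 FPKM of that sum, and OTX2 was at 19.8 and 21.2 FPKM, both within 2-fold.

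Of 13 endoderm markers, 12 reached 1 FPKM and all 12 were lower with DAPT past 2-fold, among them APOA1 (24.7 and 403 FPKM), HNF4A (0.490 and 6.36 FPKM) and FOXA2 (0.370 and 4.79 FPKM). Their sum was 57.6 and 577 FPKM. Of 10 pluripotency markers, 9 reached 1 FPKM, 6 were lower and none higher, and the sum was 330 and 774 FPKM, with POU5F1 at 47.3 and 240 FPKM. Of 11 endothelial markers, 5 reached 1 FPKM, 2 were lower and none higher past 2-fold, FLT1 (21.4 and 68.7 FPKM) and KDR (11.2 and 28.7 FPKM). CDH5, a defining endothelial cadherin gene chosen for mention after its values were seen, was at 2.90 and 2.68 FPKM (0.11), and the sum was 49.3 and 121 FPKM. LMO2 (6.48 and 8.91 FPKM) and TEK (4.90 and 8.63 FPKM) were within 2-fold. Of 14 surface ectoderm and epidermis markers, 13 reached 1 FPKM, 5 were higher and none lower, among them TP63 (3.88 and 0.546 FPKM) and KRT5 (1.53 and 0.260 FPKM), and the sum was 2025 and 1736 FPKM. KRT8 (961 and 876 FPKM) and KRT18 (846 and 687 FPKM), both within 2-fold, gave most of that sum. The lower level of TBX20, NKX2-5 and TBX5 thus stood beside lower levels of 12 endoderm and 6 pluripotency markers and of FLT1 and KDR. The higher level of MEF2C and TBX2 stood beside higher levels of 9 amnion, 5 neural crest, 5 surface ectoderm and epidermis and 2 neural markers. Some genes count more than once here: TFAP2B is an amnion and a neural crest marker, and TFAP2A an amnion and a surface ectoderm marker. The part of such cell types in the members' levels was not tested.

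**Figure D4:**
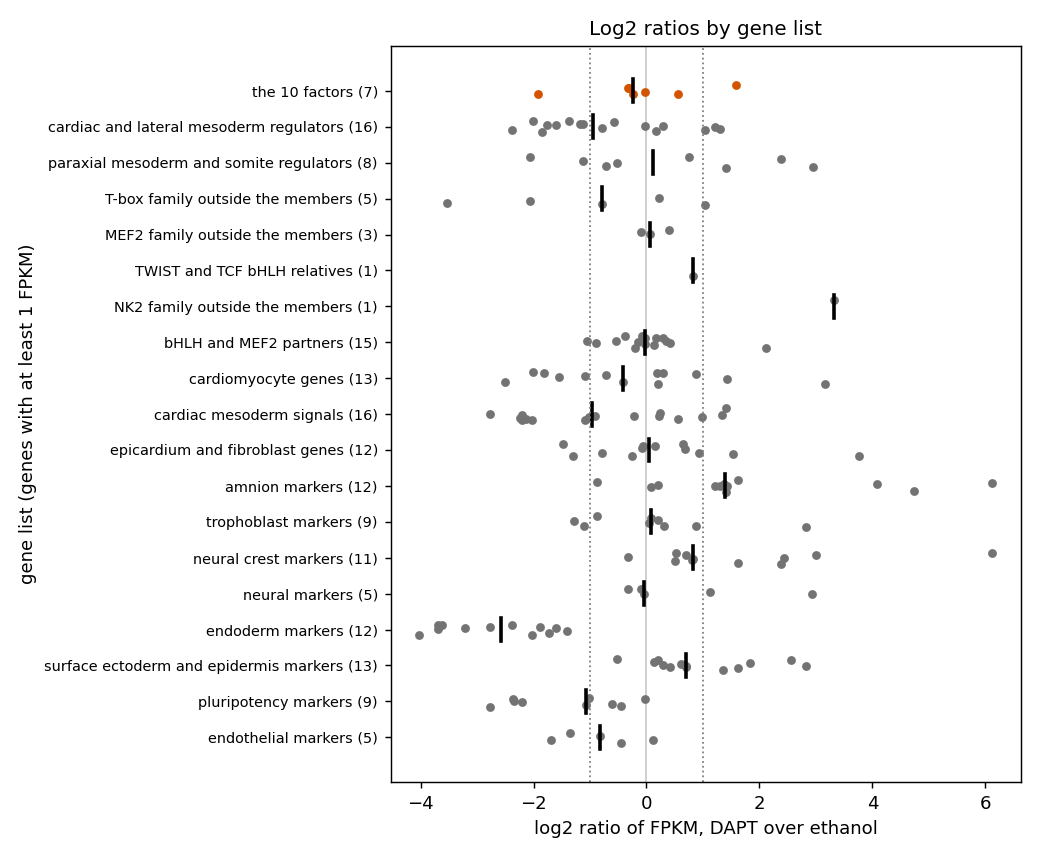
Log2 ratio of FPKM (DAPT over ethanol) of each gene with at least 1 FPKM in either treatment, by gene list, with the number of such genes in brackets, a black bar at the list's median and dotted lines at 2-fold. The 7 expressed factors at the top spread from -1.92 to 1.58 around a median of -0.25, while the endoderm markers all lie below -1 and most amnion markers above 1.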

How the data were processed

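RNA of H1 hESCs at day 10 was sequenced in 3 DAPT and 3 ethanol libraries, grouped by the treatment in the labels. Per the study's methods and the submitters' notes, reads were aligned by TopHat2 2.0.6 against hg19 and abundance was computed with Cufflinks. The FPKM values were deposited by the authors as 1 value per gene and treatment. The sources used here do not give the annotation, library scaling or strand setting. Their log2 fold changes, test statistics, p-values, q-values and significance marks hold the authors' own comparison and were not used. With 1 value per treatment no test could be made, so the ratio of the FPKM values was computed without a pseudocount in Python 3.11.15, for genes above 0 in both treatments. Differences of at least 2-fold were counted among genes with at least 1 FPKM in 1 treatment. The counting code was checked on simulated folds. These were not placed on genes of low level, so the reliability of ratios at low levels was not tested. Alternatives were pseudocounts of 0.1 and 1 FPKM, minima of 0.1 and 5 FPKM or none, folds of 1.5 and 4, and 3 other scalings.

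The rule for naming genes took all 10 members and, of each of 18 other lists, up to 3 expressed genes past 2-fold with the largest ratio and up to 2 within 2-fold with the highest FPKM, plus the rows that overlap or flank a member. Not every gene under this rule was written out, and some genes outside it were named too. The members and lists were chosen with earlier results of these data known. Loci were written to count from 1, strands and exons came from GENCODE 44 on GRCh37, and promoter windows from RefSeq, placed on GRCh37 by exact match.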

Additional observations from a re-analysis of the deposited data

How the results depend on the processing

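Over the 10 members and 5 other scalings, 44 of 50 log2 ratios kept their direction and their side of 2-fold. The 6 others were NKX2-5 (-0.45), TBX2 (0.41), TBX5 (-0.21) and MEF2C (0.82) with a pseudocount of 1 FPKM, TBX5 with 0.1 FPKM (-0.998, just inside 2-fold), and TBX3, whose ratio near 0 became 0.033 when both treatments were rescaled to the same sum. The count of members past 2-fold was 2 of 7. It was 1 of 7 with a pseudocount of 1 FPKM (TBX20) and 0 of 7 at a fold of 4. With no filter or a minimum of 0.1 FPKM it was 5 of 10, and with a minimum of 5 FPKM 0 of 4. Over all genes, 1367 of 13370 lay past 2-fold (4.77% higher and 5.45% lower). This count was 844 of 13480 (3.14% and 3.12%) with a pseudocount of 1 FPKM and 3439 of 19343 (8.06% and 9.72%) with no filter. It was 2562 of 17143 (6.67% and 8.28%) with a minimum of 0.1 FPKM and 628 of 9035 (3.45% and 3.5%) with one of 5 FPKM. Of the 13370 genes, 2930 passed a fold of 1.5 (10.5% and 11.4%) and 388 a fold of 4 (1.54% and 1.36%). A pseudocount shrinks the ratios of low genes by construction.

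The table has no value per library, so leaving out a library was not possible and the depth behind each value is unknown. No paired analysis was possible because the replicate numbers in the labels belong to libraries whose values are not in the table used here. The direction of every comparison rests on the naming in the sheet of changed genes. Under that naming, POU5F1 and TFAP2A differed in the directions that the paper reports from quantitative PCR.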

Other observations

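Rows next to the members on hg19 had ratios of either sign. SCRG1, the row before HAND2 at a distance of 127035 bases, was at 2.07 FPKM under DAPT and 0.356 FPKM under ethanol (log2 ratio 2.54), whereas HAND2 had a log2 ratio of -0.33. ETV4, an ETS factor gene 93958 bases before MEOX1, was at 14.6 and 38.5 FPKM (-1.40), on the other side of 0 from MEOX1 (0.55). STC2, the row after NKX2-5, was at 9.51 and 14.0 FPKM (-0.56) and BNIP1, the row before it, at 8.54 and 8.70 FPKM (-0.027). RBM19, the row before TBX5, was at 5.77 and 5.86 FPKM (-0.024), and SAP30L, the row before HAND1, at 3.84 and 2.91 FPKM (0.40). BCAS3, the row before TBX2, was at 5.55 and 5.75 FPKM, and TBPL1, the row after TCF21, at 12.5 and 13.9 FPKM. MED13L, the row after TBX3, was at 14.4 and 9.13 FPKM (0.66), and SOST, the row after MEOX1, at 0.957 and 1.74 FPKM (-0.86). These are values only, with 1 value per treatment and no test.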
